A study of Mus musculus with 8 samples.

Results

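Jag1, Notch1, Notch2, Rbpj and Hes1 form a small group of Notch pathway genes that was selected on measured values, namely that the pre-mRNA of Jag1 was lower after 30 min of interleukin-10 (IL-10) than without it. Of these 5 genes, 4 were among the 11415 genes analysed, and Hes1 was not analysed here. A wider list of 75 Notch pathway genes, of which 57 were analysed, was used to set these genes among the rest of the pathway. The cells were mouse bone marrow-derived macrophages, grown in medium conditioned with M-CSF (the macrophage growth factor), from IL10-/-RAG2-/- animals of strain 129S6/SvEvTac, whose age was not given. Every group carried both deletions, so the cells lacked IL-10 of their own, and all IL-10 was added. The 4 groups were lipopolysaccharide (LPS) at 1 ng/mL for 195 min with IL-10 at 1 ng/mL throughout, the same LPS exposure with IL-10 added only 30 min before its end (late IL-10, at a concentration the labels do not restate), LPS alone for 195 min, and untreated cells. Each group had 2 libraries from independent macrophage pools, and how many animals went into a pool was not given. Total RNA depleted of ribosomal RNA was sequenced, and reads were counted separately for mature mRNA and for pre-mRNA, the unspliced transcript, which follows ongoing transcription more closely than mRNA does.

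Notch signalling passes between neighbouring cells. A ligand of the Jagged or Delta-like family on one cell binds a Notch receptor on the next, the receptor is cut by an ADAM protease and then by gamma-secretase, and its inner part moves to the nucleus. There it binds RBPJ, a DNA-binding protein that otherwise recruits co-repressors, and turns on targets of which Hes1 is the best known. In macrophages, Jag1 is known as a gene that inflammatory stimuli turn on, and Notch and RBPJ are known to shape the inflammatory response.

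The promoter windows of Jag1, Notch2 and Notch1 are shown because Jag1 and Notch2 rose together under LPS and Notch1 did not pass the test, as described further on. Each runs from 250 bases before to 50 bases after a RefSeq start site (GRCm38.p6), 5′ to 3′ on the gene's own strand, with capitals for a match to the κB motif, the sequence bound by NF-κB.
Jag1 (chr2:137116471-137116770, minus strand): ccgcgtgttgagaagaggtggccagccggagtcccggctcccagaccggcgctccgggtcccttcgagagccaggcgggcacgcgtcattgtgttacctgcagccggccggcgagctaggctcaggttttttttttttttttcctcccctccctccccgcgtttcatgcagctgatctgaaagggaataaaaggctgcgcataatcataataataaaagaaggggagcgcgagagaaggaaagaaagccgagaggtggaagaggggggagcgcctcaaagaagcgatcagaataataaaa
Notch2 (chr3:98013288-98013587, plus strand): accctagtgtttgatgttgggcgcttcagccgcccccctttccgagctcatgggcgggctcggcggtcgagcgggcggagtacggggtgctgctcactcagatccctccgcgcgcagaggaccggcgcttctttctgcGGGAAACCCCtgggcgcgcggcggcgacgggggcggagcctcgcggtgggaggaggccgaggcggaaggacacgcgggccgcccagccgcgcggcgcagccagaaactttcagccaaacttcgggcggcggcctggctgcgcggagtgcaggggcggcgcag
Notch1 (chr2:26503773-26504072, minus strand): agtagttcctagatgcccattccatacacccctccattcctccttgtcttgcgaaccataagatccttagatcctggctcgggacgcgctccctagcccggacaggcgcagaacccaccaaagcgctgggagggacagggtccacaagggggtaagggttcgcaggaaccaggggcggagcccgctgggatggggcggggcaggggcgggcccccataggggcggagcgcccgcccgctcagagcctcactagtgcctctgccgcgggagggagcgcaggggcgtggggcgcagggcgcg
The windows were searched on both strands for GTGGGAA, a core site of RBPJ, for the κB motif, and for TTCNNNGAA, the spacing bound by STAT factors. The only match in these windows was a κB match in Notch2, GGGAAACCCC, 112 bases before the start site, which is read as a match on both strands. Across all 32851 promoter windows, 6.38% held GTGGGAA, 8.46% held the κB motif and 8.30% held TTCNNNGAA. The 2 annotated Rbpj windows held no match either. A motif match is a description of the letters and was not tested for binding. The GC content was 55.7% in the Jag1 window, 73% in that of Notch2 and 68.3% in that of Notch1.

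All values below are reads divided by the library's size factor, called normalized reads, and the paired values are the libraries A and B of a group, in that order. A log2 change is a difference of mean log2(normalized reads + 1) and is given ± its standard error. A call is an adjusted p under 0.05 from limma over all genes tested. With 2 libraries in each group, groups can lie apart without overlap although nothing differs between them. The share of all genes without overlap is not given here, so a lack of overlap is a description and not a test. Library totals ran from 21412968 to 53172133 reads for mRNA and from 8661271 to 31508394 for pre-mRNA, and the lowest Jag1 count of any library was 368 pre-mRNA reads. All 10 macrophage markers were present, and their summed mRNA ran from 665961 to 683122 with IL-10 throughout, from 839683 to 843877 with late IL-10, from 823377 to 880088 with LPS and from 527554 to 535819 in untreated cells. No B cell marker of 5 was analysed, and 7 of 10 neutrophil, 5 of 9 dendritic cell, 3 of 8 T and NK cell, 3 of 5 endothelial, 3 of 7 stromal and 1 of 3 megakaryocyte markers were.

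Jag1, which encodes the membrane-bound ligand Jagged1, lies on chromosome 2 from 137081456 to 137116644 on the minus strand (GENCODE M21) and overlaps no other annotated gene. Its mRNA had 5764 and 7440.4 normalized reads with IL-10 throughout, 13509 and 19574 after late IL-10, 22960.2 and 16478 with LPS alone, and 947 and 1254 in untreated cells. The untreated libraries were lowest, those with IL-10 throughout lay between them and the others without overlap, and the late IL-10 and LPS libraries overlapped. Its pre-mRNA had 4889.5 and 5253 normalized reads with IL-10 throughout, 2307 and 2438 after late IL-10, 8829 and 8179 with LPS alone, and 610.5 and 536 in untreated cells. The groups did not overlap in pre-mRNA, and the order of the levels differed from that of the mRNA, since late IL-10 was below IL-10 throughout in pre-mRNA and above it in mRNA.

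**Figure D1:**
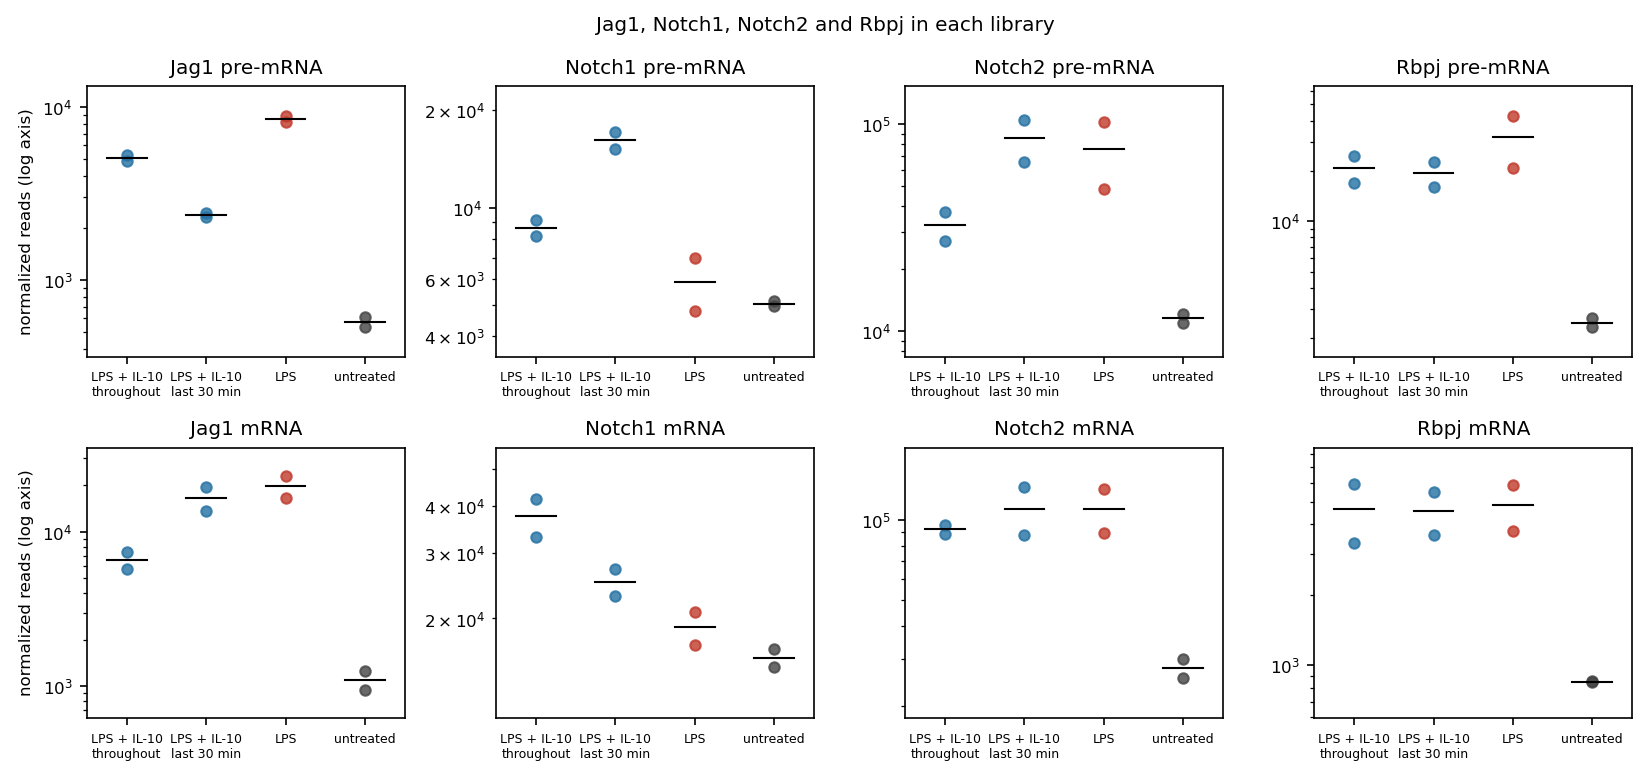
Normalized reads of Jag1, Notch1, Notch2 and Rbpj (columns) in pre-mRNA (upper row) and mRNA (lower row), on log axes, for the 4 groups. Points are the 2 libraries of a group and lines the group means. Jag1 pre-mRNA was lower with late IL-10 (2307 and 2438) than with LPS alone (8829 and 8179), while Notch1 pre-mRNA was highest with late IL-10.

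Jag1 rose under LPS. Group means were 17.9-fold higher in mRNA and 14.8-fold higher in pre-mRNA with LPS than in untreated cells, with log2 changes of 4.16 ± 0.29 (adjusted p = 0.000182) and 3.89 ± 0.20 (adjusted p = 2.83e-05). Ranked by the size of the rise, Jag1 was number 355 of 11415 genes in mRNA and number 433 of 11131 genes in pre-mRNA. The call held when any single library was left out and in the other settings tried, with adjusted p from 0.000109 to 0.00311 in mRNA. The LPS libraries in this comparison are also those of the comparison by which Jag1 was picked. In the 1 comparison whose means share no library with it, IL-10 throughout against untreated cells, Jag1 rose by 2.59 ± 0.29 in mRNA (adjusted p = 0.00125) and 3.14 ± 0.20 in pre-mRNA (adjusted p = 7.11e-05) on the log2 scale. The standard errors and adjusted p there still draw on the spread of all 8 libraries, which were fitted together.

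The brief and the long exposure to IL-10 gave different profiles of Jag1. With late IL-10 the mean pre-mRNA was 27.9% of that with LPS alone while the mean mRNA was 83.9%, log2 differences of -1.84 and -0.26. These are the values that chose the gene and they are given without a test. Leaving out single libraries moved the pre-mRNA difference between -1.90 and -1.79. Its mean pre-mRNA after late IL-10 was 4.14-fold above that of untreated cells. With IL-10 throughout, Jag1 mRNA fell to 33.5% of the LPS mean, a log2 change of -1.57 ± 0.29 (adjusted p = 0.0464). This call was lost when any single library was left out (adjusted p from 0.0539 to 0.22), with scaling to total reads (log2 change -1.31, adjusted p = 0.164) and with only the compared groups in the fit (adjusted p = 0.107). The mean pre-mRNA was 59.6% of that with LPS alone, with a log2 difference of -0.75 ± 0.20 that did not pass the test (adjusted p = 0.0692).

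Set against late IL-10, IL-10 throughout gave 2.14-fold more Jag1 pre-mRNA and 39.9% of the Jag1 mRNA. The pre-mRNA rose by 1.10 ± 0.20 on the log2 scale (adjusted p = 0.0392), and the mRNA difference of -1.31 ± 0.29 did not pass the test (adjusted p = 0.0998). The pre-mRNA call was lost on leaving out either untreated library, either library with IL-10 throughout or either late IL-10 library, with adjusted p up to 0.31, and with only the compared groups in the fit (adjusted p = 0.0749). The comparisons of IL-10 throughout with LPS alone and with late IL-10 each share 2 libraries with the comparison by which Jag1 was picked. Jag1 was picked for lower pre-mRNA with late IL-10 than with LPS alone. In pre-mRNA this favours a rise against late IL-10 and a fall against LPS alone. The pre-mRNA call against late IL-10 is therefore no support for Jag1.

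Relative to its mRNA, Jag1 pre-mRNA was 76.8% with IL-10 throughout, 14.3% with late IL-10, 43.1% with LPS alone and 52.1% in untreated cells. These are shares of group means, which have no replicate error because the libraries of the mRNA and pre-mRNA counts were not matched to each other. Each measure was divided by size factors of its own, so these are ratios of normalized levels and not shares of the reads counted. For Notch1 late IL-10 gave the highest share, with 23.1% under IL-10 throughout, 64.6% under late IL-10, 31.1% with LPS alone and 32.1% in untreated cells. Notch2 had 35.1% with IL-10 throughout, 77.5% with late IL-10, 68.3% with LPS alone and 41.3% in untreated cells. Rbpj, whose span of 191211 bases holds 12750 bases of merged exons, had 449.7% with IL-10 throughout, 427% with late IL-10, 662% with LPS alone and 290.7% in untreated cells.

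**Figure D2:**
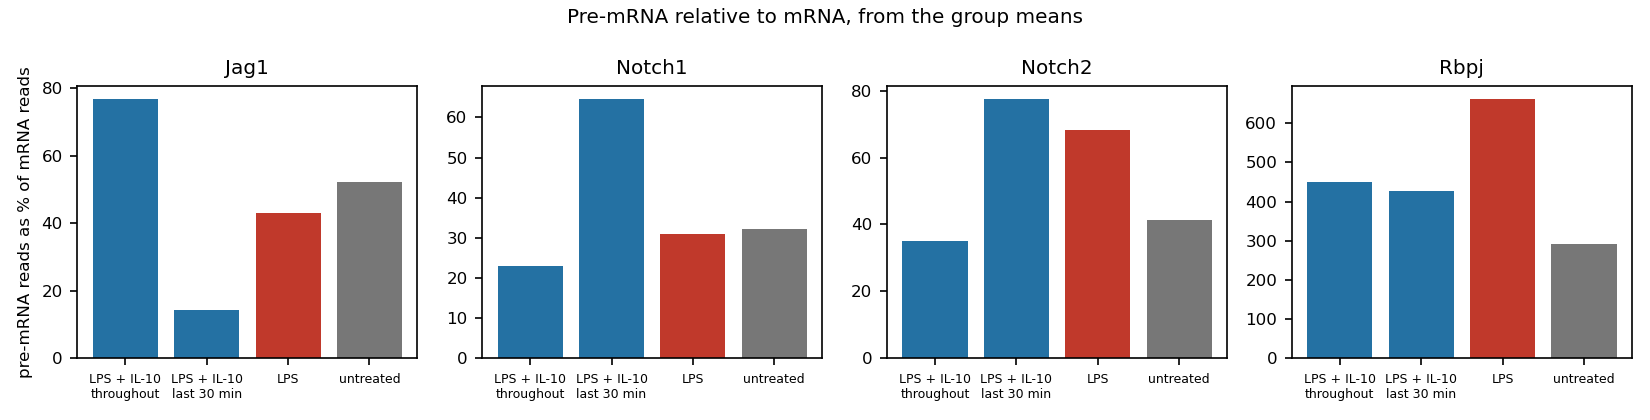
Mean normalized pre-mRNA reads as a percent of mean normalized mRNA reads (vertical axes, with a scale of their own for each gene) in the 4 groups, from group means with no error bars. Each measure was divided by size factors of its own. Late IL-10 gave the lowest share for Jag1 (14.3%) and the highest for Notch1 (64.6%) and Notch2 (77.5%), and Rbpj was above 100% in every group because more reads fell to its pre-mRNA than to its mRNA.

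Among markers of other cell types, some genes but no whole list of more than 1 gene followed the pattern of Jag1 mRNA. Of the 3 analysed stromal markers, Pdgfrb had 671 and 580.2 normalized mRNA reads with IL-10 throughout, 2364 and 2306 after late IL-10, 2604 and 2395 with LPS and 122 and 249 in untreated cells. Pdgfra followed the pattern too, at few reads. It had 16.1 and 20.2 reads with IL-10 throughout, 22.1 and 33.1 after late IL-10, 33.0 and 22.4 with LPS and 0 in untreated cells. Acta2 did not follow it, with 103 and 34.0 reads with IL-10 throughout, 99.6 and 33.1 after late IL-10, 46.4 and 144 with LPS and 114 and 60.8 in untreated cells. Of the 5 dendritic cell markers, Itgax made up most of the sum, with 4215 and 2686 reads with IL-10 throughout, 15455 and 8348 after late IL-10, 8923 and 17250.1 with LPS and 1195 and 2759 in untreated cells. Itgax overlapped between IL-10 throughout and untreated cells. Zbtb46 and Xcr1 followed the pattern of Jag1 mRNA in all groups, at up to 437 reads. Ccr7 (54.5 and 42.5 with IL-10 throughout, 46.4 and 26.6 with LPS) and Batf3 (113 and 65.9 with IL-10 throughout, 45.3 and 165 with LPS) overlapped between IL-10 throughout and LPS. Of the 7 neutrophil markers, S100a9, Ngp and Ltf followed the pattern, and S100a8, Mpo, Camp and Mmp8 did not. S100a9 had 45.6 and 9.93 reads in untreated cells and 174 and 136 with IL-10 throughout. It had 345 and 253 after late IL-10 and 248 and 326 with LPS. Mmp8 made up most of the neutrophil sum, at 1423 and 1726 with LPS against 1599 and 2556 in untreated cells. Pf4, the 1 megakaryocyte marker analysed, ran from 431 to 766 with IL-10 throughout, from 1536 to 1717 after late IL-10, from 1651 to 1719 with LPS and from 115 to 422 in untreated cells. The summed T and NK cell markers ran the other way, from 409 to 796 with IL-10 throughout, from 542 to 957 after late IL-10, from 449 to 762 with LPS and from 3341 to 5608 in untreated cells. Cd28 made up most of this sum in untreated cells, with 3317 and 5487 reads there and 395 and 618 with LPS. Lck was instead higher with LPS (36.1 and 118) than in untreated cells (6.61 and 6.21), and Cd4 overlapped. The summed endothelial markers were not higher with LPS (9448 to 12593) than in untreated cells (11075 to 22267). Vwf made up most of this sum, with 8341 and 10651 reads with LPS and 9852 and 20093 in untreated cells. Cdh5 was higher with LPS (72.1 and 195) than in untreated cells (34.4 and 12.4), and Kdr overlapped. The part of these markers in the result was not tested. In bulk RNA, fewer cells of a type and less RNA per cell cannot be told apart.

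Dll1, which encodes a Delta-like ligand, was the only other ligand analysed and was far less abundant. Its mRNA had 40.2 and 21.3 normalized reads with IL-10 throughout, 419 and 204 after late IL-10, 176 and 486 with LPS alone, and 4.63 and 3.72 in untreated cells. Per kilobase of merged exons, mean mRNA with LPS was 78.5 normalized reads for Dll1 and 3384 for Jag1. Dll1 rose under LPS in mRNA (log2 change 5.83 ± 0.62, adjusted p = 0.000811) and in pre-mRNA (5.24 ± 0.88, adjusted p = 0.00281). Over both libraries these rest on 518 reads with LPS against 10 in untreated cells for mRNA and on 95 against 2 for pre-mRNA, a pre-mRNA ratio of 76.5 with a 95% counting interval from 20.6 to 641. With IL-10 throughout, only 2 pre-mRNA reads were counted against 95 with LPS alone, a 68.1-fold lower level with a counting interval from 18.3 to 571, and the fall passed the test (adjusted p = 0.0231). The mRNA difference of -3.28 ± 0.62 did not (adjusted p = 0.0506), but did with a pseudocount of 8 (adjusted p = 0.0465) and with scaling to total reads (adjusted p = 0.0366). The pre-mRNA call was lost without LPS library A and without either library with IL-10 throughout, and under limma-voom, with adjusted p from 0.0212 to 0.15 over the alternatives. Dll1 pre-mRNA had 102 and 24.7 normalized reads with late IL-10 against 81.1 and 35.1 with LPS alone, which overlap (log2 difference -0.08, adjusted p = 1). Dll1 pre-mRNA also fell with IL-10 throughout against late IL-10, with 2 reads against 138 over both libraries (adjusted p = 0.0414), a call that held in 2 of 8 fits that left out 1 library and was lost with a pseudocount of 8, without a filter, with only the compared groups and under limma-voom (adjusted p from 0.0541 to 0.0959).

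Notch1, on chromosome 2 from 26457903 to 26516663 on the minus strand, encodes a receptor that macrophages express. Its mRNA had 33097 and 41786 normalized reads with IL-10 throughout, 27079.5 and 22977 after late IL-10, 17025 and 20828 with LPS alone, and 16593 and 14820.1 in untreated cells. No 2 groups overlapped in this order, and of its neighbours neither pair with a test passed it, with adjusted p = 0.314 for IL-10 throughout against late IL-10 and 0.398 for LPS against untreated cells. Its pre-mRNA had 8148 and 9147 normalized reads with IL-10 throughout, 17175.5 and 15153 after late IL-10, 6974 and 4787 with LPS alone, and 5144 and 4949 in untreated cells. Late IL-10 was highest without overlap, at 2.75-fold the LPS mean in pre-mRNA and 1.32-fold in mRNA, which is given without a test. The gene shares its locus with 2 transcripts on the other strand and a microRNA gene on its own, and whether the counting used strand is not given in the sources used here.

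Notch1 did not pass the test under LPS, where the log2 difference was 0.26 ± 0.23 in mRNA (adjusted p = 0.398) and 0.20 ± 0.29 in pre-mRNA (adjusted p = 0.604). Scaling to total reads turned both to the negative, at -0.48 (adjusted p = 0.106) and -0.72 (adjusted p = 0.0233), against a median of all genes of -0.74 in mRNA and -0.91 in pre-mRNA under that scaling and of 0.008 and 0.001 otherwise. Relative to untreated cells, Notch1 mRNA rose with IL-10 throughout by 1.25 ± 0.23 on the log2 scale (adjusted p = 0.00878), a call lost without library B of that group (adjusted p = 0.0519). Its mean mRNA with IL-10 throughout was 1.98-fold that with LPS alone, a log2 difference of 0.98 ± 0.23 that did not pass the test (adjusted p = 0.0893) and did with scaling to total reads (1.25, adjusted p = 0.0353). The pre-mRNA difference was 0.58 ± 0.29 (adjusted p = 0.28), and 1.04 with scaling to total reads (adjusted p = 0.0287).

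Notch2, on chromosome 3 from 98013527 to 98150361 on the plus strand, was the most abundant of the 3 Notch receptors analysed, with 10234 normalized mRNA reads per kilobase of merged exons under LPS against 1329.8 for Notch1. Its mRNA had 95889 and 88818 normalized reads with IL-10 throughout, 132448 and 87718 after late IL-10, 89687 and 131001 with LPS alone, and 25489.7 and 30246 in untreated cells. All groups given LPS lay above untreated cells and overlapped among themselves. Its pre-mRNA had 37627 and 27269 normalized reads with IL-10 throughout, 104912 and 65747 after late IL-10, 102067 and 48658 with LPS alone, and 10927 and 12094 in untreated cells. IL-10 throughout lay below late IL-10 and LPS alone in pre-mRNA without overlap. The annotated transcripts Gm42819 and Gm42820 lie within Notch2 on its strand, and reads from them cannot be told apart from its pre-mRNA.

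Notch2 rose under LPS, by 1.96 ± 0.31 in mRNA (adjusted p = 0.00391) and 2.62 ± 0.55 in pre-mRNA (adjusted p = 0.00724) on the log2 scale, and the pre-mRNA call was lost without untreated library A (adjusted p = 0.0504). IL-10 throughout against LPS gave differences of -0.23 ± 0.31 in mRNA (adjusted p = 0.85) and -1.14 ± 0.55 in pre-mRNA (adjusted p = 0.271), and neither passed the test. Relative to untreated cells, Notch2 mRNA rose with IL-10 throughout by 1.73 ± 0.31 (adjusted p = 0.00845), a call lost without untreated library A or without library A of the group with IL-10 throughout (adjusted p up to 0.0567). The pre-mRNA difference of 1.48 ± 0.55 did not pass (adjusted p = 0.0814), but did when either LPS library was left out, with scaling to total reads, with only the compared groups and under limma-voom (lowest adjusted p = 0.0158).

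Notch4, a receptor best known from blood vessels, was low and spread widely. Its mRNA had 73.3 and 171 normalized reads with IL-10 throughout, 36.0 and 139 after late IL-10, 121 and 36.4 with LPS alone, and 212 and 247 in untreated cells. The untreated libraries were highest, and the log2 difference of -1.77 ± 0.81 for LPS against untreated cells did not pass the test (adjusted p = 0.13). Nor did the pre-mRNA difference of -2.00 ± 0.81 (adjusted p = 0.0788), which passed with scaling to total reads (adjusted p = 0.0344), with only the compared groups (adjusted p = 0.0434) and without LPS library B.

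Rbpj, on chromosome 5 from 53466152 to 53657362 on the plus strand, encodes the DNA-binding partner of the cut Notch receptor. Its mRNA had 5942.5 and 3329 normalized reads with IL-10 throughout, 5482 and 3593 after late IL-10, 3762 and 5882 with LPS alone, and 853 and 850.2 in untreated cells. Its pre-mRNA had 24646 and 17051 normalized reads with IL-10 throughout, 22703 and 16094 after late IL-10, 42889 and 20920.4 with LPS alone, and 2627 and 2323 in untreated cells. Untreated cells were lowest in both, and the 3 groups given LPS overlapped. Rbpj rose under LPS by 2.46 ± 0.36 in mRNA (adjusted p = 0.00292) and 3.60 ± 0.43 in pre-mRNA (adjusted p = 0.000643) on the log2 scale, and with IL-10 throughout against untreated cells by 2.38 ± 0.36 (adjusted p = 0.00436) and 3.05 ± 0.43 (adjusted p = 0.00213). IL-10 throughout against LPS gave -0.08 ± 0.36 in mRNA (adjusted p = 0.968) and -0.55 ± 0.43 in pre-mRNA (adjusted p = 0.505). Late IL-10 against LPS gave -0.08 and -0.65, without a test. The genome holds pseudogenes of Rbpj on chromosomes 4 and 6, so its mRNA counts are uncertain where reads match both. Rbpj also overlaps 2 antisense genes on the other strand, Gm10441 and Gm40304. If the counting did not use strand, reads from them could count towards Rbpj.

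**Figure D3:**
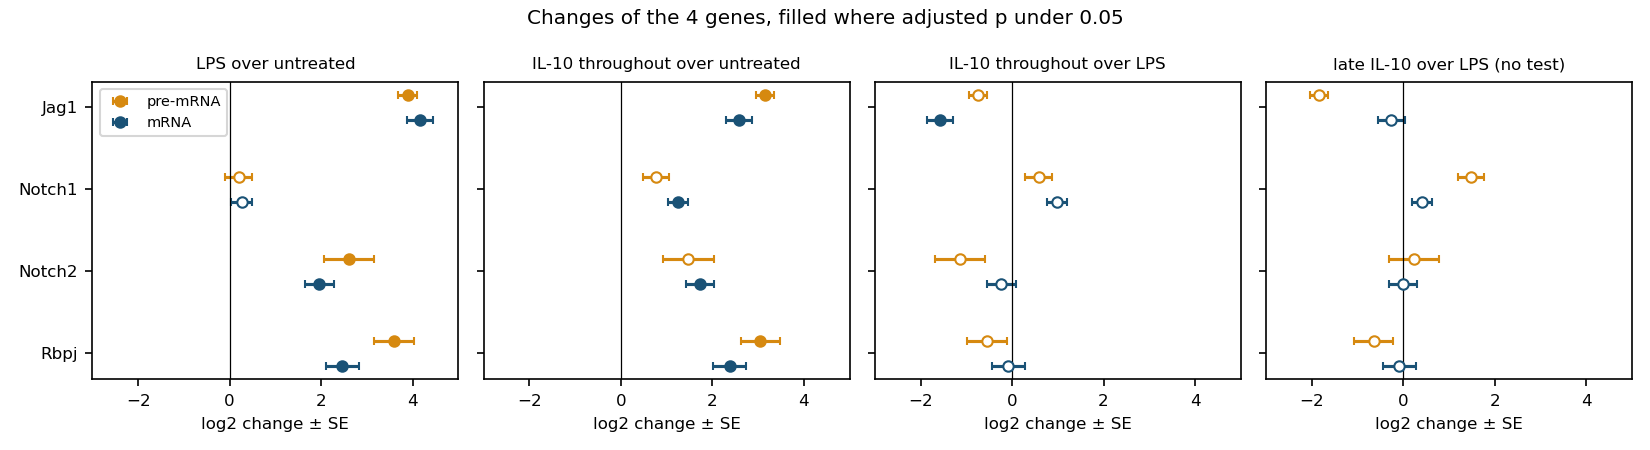
Log2 changes ± SE of Jag1, Notch1, Notch2 and Rbpj in pre-mRNA and mRNA for 4 comparisons, filled where the adjusted p was under 0.05; late IL-10 over LPS carries no test. Jag1, Notch2 and Rbpj lie right of 0 under LPS in both measures, and late IL-10 separates Jag1 pre-mRNA (-1.84) from Notch1 pre-mRNA (1.48).

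Across the 4 genes, Jag1, Notch2 and Rbpj, 3 in all, rose under LPS in mRNA and in pre-mRNA, where 19.2% of all genes rose in mRNA and 22.3% in pre-mRNA, and 16.5% and 21.7% fell. IL-10 throughout against LPS changed 1 of the 4 in mRNA, Jag1, with 1.19% of all genes higher and 1.05% lower, and none of the 4 passed in pre-mRNA, with 2.44% of all genes higher and 4.26% lower. IL-10 throughout against late IL-10 changed 1 of the 4, Jag1 in pre-mRNA, with 0.755% of all genes higher and 2.20% lower. Jag1 was picked for its low pre-mRNA in these late IL-10 libraries, so this call is no support for it. In the mRNA of that comparison 0.517% of all genes were higher and 0.569% lower. IL-10 throughout against untreated cells raised all 4 in mRNA (14.2% of all genes higher, 11.6% lower) and 2 of 4, Jag1 and Rbpj, in pre-mRNA (14.1% higher, 14.7% lower). The comparisons share control libraries, so their counts are not independent.

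Under LPS the calls in the wider pathway went in both directions, at shares close to those of all genes. Of the 57 list genes, 11 rose and 11 fell in mRNA, with a median log2 change of -0.10 against 0.01 over all genes, and 10 rose and 13 fell in pre-mRNA, with a median of -0.03 against 0.001. Over all genes 19.2% rose and 16.5% fell in mRNA, and 22.3% rose and 21.7% fell in pre-mRNA. Without the members, 8 rose and 11 fell among 53 genes in mRNA and 7 rose and 13 fell in pre-mRNA. With scaling to total reads the split was 7 up and 29 down in both measures, and all genes shifted the same way, with 1203 higher among 5699 called in mRNA (median -0.74) and 1237 higher among 5919 in pre-mRNA (median -0.91).

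By role, of the 8 analysed enzymes that put sugars on Notch receptors, 4 fell in mRNA and 5 in pre-mRNA under LPS, and none of the 8 rose by limma. These counts by role, here and in what follows, are over few genes and stand against 19.2% of all genes higher and 16.5% lower in mRNA, and 22.3% higher and 21.7% lower in pre-mRNA. Lfng, a fringe glycosyltransferase that tunes which ligands Notch answers to, had 908 and 541 normalized mRNA reads with LPS against 3664 and 5160 in untreated cells (log2 change -2.63 ± 0.38, adjusted p = 0.00278). Eogt, which adds a sugar to receptor repeats, fell by 1.48 on the log2 scale (adjusted p = 0.00522) in mRNA. Some other calls of this role were less stable. In mRNA that of Rfng was lost with only the compared groups (adjusted p = 0.0715). In pre-mRNA that of Poglut1 was lost without a filter (0.0505) and with only the compared groups (0.0818), and that of Mfng without a filter (0.0612). Leaving out single libraries also ended calls of Rfng, Poglut1 and Mfng. Among the 8 genes of receptor cleavage, 1 rose and 2 fell in mRNA and 2 rose and 2 fell in pre-mRNA. Adam17, a protease that cuts Notch and many other surface proteins, had 26718 and 32714 mRNA reads with LPS against 9650.4 and 10384 in untreated cells and rose (1.56 ± 0.23, adjusted p = 0.00323). Aph1c, a gamma-secretase subunit, fell to 204 and 127 mRNA reads with LPS, against 2427 and 2324 in untreated cells (-3.87 ± 0.42, adjusted p = 0.000896). Psen2, a catalytic subunit of gamma-secretase, fell by 1.13 on the log2 scale (adjusted p = 0.0232), a call lost without untreated library B or either LPS library.

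Of the 12 genes of endocytosis and ubiquitin ligases, 1 rose and 3 fell in mRNA under LPS. Dtx2, a Deltex ubiquitin ligase, rose by 1.39 ± 0.23 (adjusted p = 0.00499), not with scaling to total reads (adjusted p = 0.0906), and Neurl1a, a ligase that acts on ligands, fell by 3.72 (adjusted p = 0.00595). Of the 9 genes of the nuclear complex, 3 rose in mRNA, Rbpj, Crebbp and Maml2, of which Maml2 is a Mastermind co-activator (1.70 ± 0.51, adjusted p = 0.0381). With scaling to total reads Crebbp turned to -0.07 and the call of Maml2 was lost (0.95, adjusted p = 0.0837). Of the 11 co-repressors, 2 rose and 1 fell in mRNA and 1 rose and 4 fell in pre-mRNA, with Tle1 at -2.00 ± 0.36 (adjusted p = 0.00616) and Hdac1 at 2.56 ± 0.44 (adjusted p = 0.00529) in mRNA. Among 4 target genes, Cdkn1a, a cell cycle inhibitor that many pathways control, rose to 141183 and 198579 mRNA reads with LPS, against 3187 and 5517 in untreated cells (5.32 ± 0.43, adjusted p = 0.000291). Hes6, a relative of Hes1, fell by 1.27 on the log2 scale (adjusted p = 0.0273). The calls of Maml2 and Hes6 were lost without either untreated library or LPS library B, and that of Crebbp held in 2 of 8 fits that left out 1 library.

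**Figure D4:**
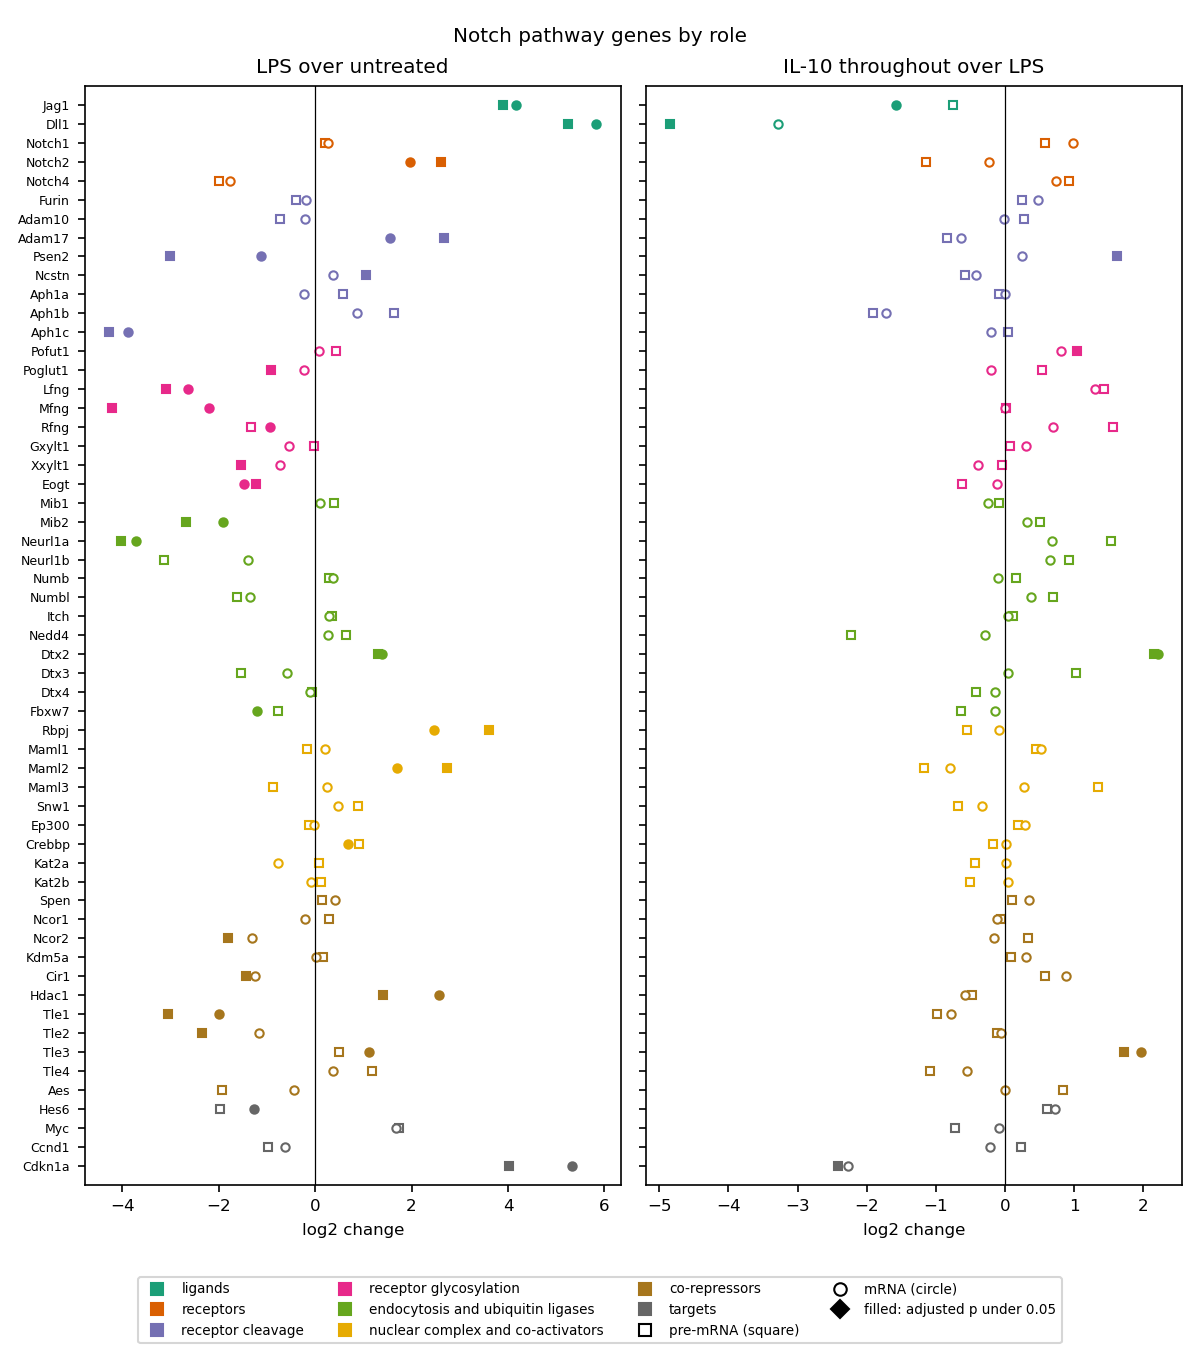
Log2 changes of the 57 analysed Notch pathway genes, in order of role, for LPS over untreated cells (left) and IL-10 throughout over LPS (right); circles are mRNA, squares pre-mRNA, and filled symbols have an adjusted p under 0.05. Under LPS 11 genes rose and 11 fell in mRNA, and IL-10 throughout changed 3 in mRNA, Jag1, Tle3 and Dtx2.

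IL-10 throughout against LPS changed 3 genes of the list in mRNA and 6 in pre-mRNA. In mRNA 2 of 57 rose and 1 fell, where 1.19% of all genes rose and 1.05% fell, with a median of -0.001 against -0.02 over all genes. In pre-mRNA 4 rose and 2 fell, where 2.44% of all genes rose and 4.26% fell, with a median of 0.07 against 0.001. Tle3, a Groucho-family co-repressor, had 31065 and 34114 normalized mRNA reads with IL-10 throughout against 8495 and 8144 with LPS alone (log2 change 1.97 ± 0.23, adjusted p = 0.00931), and its pre-mRNA rose by 1.73 ± 0.36 (adjusted p = 0.0336). Dtx2 had 5236 and 5531 mRNA reads with IL-10 throughout against 1155 and 1169.6 with LPS alone (2.21 ± 0.23, adjusted p = 0.00701) and rose by 2.15 ± 0.26 in pre-mRNA (adjusted p = 0.00666). For both genes the groups did not overlap. The mRNA call of Tle3 was lost without either LPS library or either library with IL-10 throughout (adjusted p up to 0.0831), and that of Dtx2 without LPS library B or either library with IL-10 throughout (up to 0.0648). The pre-mRNA call of Tle3 held in 2 of 8 fits that left out 1 library and was lost without a filter (adjusted p = 0.073) and with only the compared groups (adjusted p = 0.0774). Psen2 (1.62 ± 0.37, adjusted p = 0.0454) and Pofut1, which adds the first fucose to Notch (1.04 ± 0.24, adjusted p = 0.0459), rose in pre-mRNA, and the pre-mRNA of Cdkn1a fell by 2.42 on the log2 scale (adjusted p = 0.019). Leaving out any single library ended the call of Pofut1, and the Psen2 call held in 3 of 8 such fits and that of Cdkn1a in 5 of 8. The Psen2 call was also lost without a filter (adjusted p = 0.0984), with scaling to total reads (0.0544) and with only the compared groups (0.0854). Without a filter the calls of Pofut1 (0.0679) and Cdkn1a (0.0582) were lost too, as was that of Pofut1 with only the compared groups (0.123).

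With late IL-10, leaving aside the 4 members, which carry no test here, none of the other 53 list genes passed in mRNA against LPS by limma or by limma-voom, and 0 had an unadjusted p under 0.05 in either direction, where 0% of all genes were called. In pre-mRNA 1 of these 53 rose, where 0.979% of all genes rose and 0.0629% fell. It was Tle3, with 15891 and 11174 normalized pre-mRNA reads with late IL-10 against 4082 and 2459 with LPS alone (2.07 ± 0.36, adjusted p = 0.0485), a call lost when any single library was left out (adjusted p up to 0.303), without a filter (0.116), with only the compared groups (0.2) and under limma-voom (0.0509). The pre-mRNA of Dtx2 had 3552 and 2976 normalized reads with late IL-10 against 1284 and 1042 with LPS alone, a difference that did not pass the test (1.49 ± 0.26, adjusted p = 0.0508). IL-10 throughout against late IL-10 raised 2 list genes in mRNA, Tle3 (1.59 ± 0.23, adjusted p = 0.0335) and Dtx2 (1.82 ± 0.23, adjusted p = 0.0234), both lost with only the compared groups and each held in 2 of 8 fits that left out 1 library. In pre-mRNA 1 rose, Jag1, and 2 fell, Dll1 and Tle1 (-1.36 ± 0.26, adjusted p = 0.0444), of which Tle1 too held in 2 of 8 such fits. The Jag1 call rests on the late IL-10 libraries by which Jag1 was picked and is no support for it.

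IL-10 throughout against untreated cells raised 13 and lowered 9 list genes in mRNA, with a median log2 change of -0.22 against 0.02 over all genes, and raised 9 and lowered 12 in pre-mRNA, with a median of 0.04 against -0.01. Over all genes 14.2% rose and 11.6% fell in mRNA, and 14.1% rose and 14.7% fell in pre-mRNA. With scaling to total reads the splits were 9 up and 14 down in mRNA and 8 up and 14 down in pre-mRNA, where 1038 of 3561 called genes were higher in mRNA and 1011 of 3202 in pre-mRNA. Aph1c fell by 4.07 in mRNA on the log2 scale (adjusted p = 0.000935), Tle3 rose by 3.08 ± 0.23 (adjusted p = 0.000279), Dtx2 rose by 3.60 ± 0.23 (adjusted p = 0.000178) and Tle1 fell by 2.78 (adjusted p = 0.0022). Both ligands rose in mRNA, Dll1 by 2.55 ± 0.62 (adjusted p = 0.0249), a call lost without either untreated library, without library A of the group with IL-10 throughout, with a pseudocount of 8 and under limma-voom.

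The genes whose profile over the 8 group means was most like that of Jag1 were found by the root mean square difference of log2 values centred within each measure, among 10570 genes. They were Ppm1n (0.21), Clec5a (0.22), Abhd17c (0.35), Ell2 (0.40) and Lmo4 (0.41), where the median gene had 1.59. Clec5a, which encodes a myeloid cell lectin receptor, had mean pre-mRNA of 1137 normalized reads with IL-10 throughout, 423 with late IL-10, 1496 with LPS alone and 79.1 in untreated cells. Ppm1n, a phosphatase gene, was scarce, with mean pre-mRNA of 17.9 normalized reads with IL-10 throughout, 8.42 with late IL-10, 31.2 with LPS alone and 1.53 in untreated cells. Lmo4, a LIM-domain transcriptional adaptor, had mean pre-mRNA of 3430.1 normalized reads with IL-10 throughout, 2520.2 with late IL-10, 6114 with LPS alone and 500.02 in untreated cells. In the same order of likeness Rbpj was number 78, Notch2 number 604 and Notch1 number 4511. Likeness over 8 means from shared libraries is a description and was not tested.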

How the data were processed

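The authors deposited 1 table of 11415 genes with the normalized read level of mRNA and of pre-mRNA as 1 mean for each group. Trim Galore, DESeq and the mm10 build are named in the submitters' processing notes without version or role. How reads were assigned to pre-mRNA, and whether by strand, is not given in the sources used here. Each mean was split back into the normalized reads of its 2 libraries, because reads are whole numbers and only 1 pair of counts gave each deposited value. The library with the larger size factor was called A, separately for each group and measure. As the deposited columns are means and not counts, edgeR, planned as an alternative, was not used, and limma-voom on the recovered reads was added after seeing the data.

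The test was limma 3.58.1 (R 4.3.3) with a mean-variance trend on log2(normalized reads + 1), all 8 libraries of a measure in 1 fit, for genes averaging 1 or more (11415 in mRNA, 11131 in pre-mRNA), with Benjamini-Hochberg adjustment over all genes and a threshold of 0.05. It was tested on simulated data. Alternatives were a pseudocount of 8, no filter, a mean of at least 10, scaling to total reads, only the compared groups, and leaving out each library. Intervals for small counts are exact and cover counting error only. Genes named were the members, every ligand and receptor, up to 3 called genes with the smallest adjusted p for each role and comparison, and the 5 genes most like Jag1. Mfng and Poglut1 were named besides, for calls that were less stable. Members and lists were chosen with earlier results of these data known, and 1 gene of the pathway list is not reported here. Positions are from GENCODE M21 and promoters from RefSeq. The macrophage pools were independent, so the spread includes that between cultures.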

Additional observations from a re-analysis of the deposited data

How the results depend on the processing

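No paired analysis was possible because the columns carry no replicate numbers, and edgeR was not run because the columns are means. Both LPS and IL-10 throughout against untreated cells kept the Jag1 calls in every alternative run, as did LPS against untreated cells for the mRNA of Notch2 and both measures of Rbpj.

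Of 57 list genes, scaling to total reads called 36 in mRNA (22 as reported) and 36 in pre-mRNA (23) for LPS against untreated cells, 6 in mRNA for IL-10 throughout against LPS (3) and 4 in pre-mRNA for late IL-10 against LPS (2, of which Jag1 was chosen on this comparison). A pseudocount of 8 called 5 in mRNA for IL-10 throughout against LPS. Without a filter, the pre-mRNA calls were 3 for IL-10 throughout against LPS (6), 1 for late IL-10 against LPS and 0 for IL-10 throughout against late IL-10 (3). With only the compared groups they were 3, 0 and 0, with 0 in mRNA for IL-10 throughout against late IL-10 (2), and limma-voom gave 1 for late IL-10 against LPS. No late IL-10 call without a filter or under limma-voom was of a higher gene, and Tle3 was lost in both. The late IL-10 counts are over a list that holds Jag1, which was chosen on this comparison. They are therefore no support for Jag1.

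For Jag1, IL-10 throughout against LPS in mRNA was -1.31 with scaling to total reads and -1.57 with only the compared groups, both short of the threshold, and in pre-mRNA -0.75 without a filter, which passed it. IL-10 throughout against late IL-10 in pre-mRNA was 1.10 without a filter and with only the compared groups, both short of it.

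Leaving out each library in turn, the list calls ran from 14 to 21 in mRNA and from 18 to 30 in pre-mRNA for LPS against untreated cells, from 0 to 2 and from 1 to 6 for IL-10 throughout against LPS, at 0 and from 0 to 1 for late IL-10 against LPS, from 0 to 2 and from 0 to 4 for IL-10 throughout against late IL-10, and from 10 to 19 and from 9 to 22 for IL-10 throughout against untreated cells. The pre-mRNA range for late IL-10 against LPS is likewise no support for Jag1, and Tle3 was not among its calls. Jag1 ran from -1.81 to -1.33 in mRNA for IL-10 throughout against LPS and from 1.04 to 1.15 in pre-mRNA against late IL-10.

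Scaling to total reads turned the sign of differences that did not pass the test, to -0.48 for Notch1 mRNA (LPS against untreated cells), 0.032 for Notch2 and 0.18 for Rbpj mRNA (IL-10 throughout against LPS) and 0.052 for Notch2 mRNA (IL-10 throughout against late IL-10), and of Notch1 pre-mRNA under LPS to -0.72, which passed. It turned the call of Crebbp mRNA under LPS to -0.067, short of the threshold. Under limma-voom Dll1 mRNA was 0.063 for late IL-10 against LPS. The cause was not tested. Leaving out a library also turned the sign of differences short of the threshold. In mRNA, IL-10 throughout against LPS ran from -0.51 to 0.041 for Notch2, from -0.50 to 0.34 for Rbpj and from -0.10 to 1.60 for Notch4. IL-10 throughout against late IL-10 ran from -0.52 to 0.073 for Notch2, from -0.41 to 0.42 for Rbpj and from -0.31 to 1.61 for Notch4, and late IL-10 against LPS from -0.73 to 0.73 for Dll1 and from -0.87 to 1.05 for Notch4. In pre-mRNA, LPS against untreated cells ran from -0.076 to 0.47 for Notch1, late IL-10 against LPS from -1.08 to 0.93 for Dll1 and from -0.58 to 0.94 for Notch4, IL-10 throughout against late IL-10 from -0.16 to 0.37 for Rbpj and from -0.17 to 1.65 for Notch4, and IL-10 throughout against untreated cells from -0.12 to 0.93 for Dll1.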
